A study of Mus musculus with 12 samples.

Results

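The interaction of Crebl2 siRNA and rapamycin was measured in the mouse myoblast line C2C12, whose cells can fuse into muscle fibres. It is the log2 change that rapamycin produced with an siRNA against Crebl2 minus the log2 change that it produced with a control siRNA, and it needs all 4 groups of the study, so all 12 of 12 libraries were used. The 4 groups of 3 libraries each were the Renilla Luciferase siRNA (Luc) in ethanol, the Luc siRNA in rapamycin, the Crebl2 siRNA in ethanol and the Crebl2 siRNA in rapamycin. All cells were grown in DMEM with 10% FBS and carried an siRNA for 3 days, after which 20 nM rapamycin or its ethanol vehicle was present for 12 hours. The Crebl2 groups rest on a single siRNA sequence and a single cell line. The labels number the replicates but do not say that they were separate cultures, so p-values reflect how much these libraries vary, and that variation may be technical. A positive interaction means a higher rapamycin response with the Crebl2 siRNA (a smaller fall, a larger rise, or a rise in place of a fall), and a negative interaction means a lower one. Of 13247 tested genes, 159 were called (1.20%), meaning that edgeR's quasi-likelihood test gave them an adjusted p (Benjamini-Hochberg) below 0.05. Genes of muscle contraction, Notch signalling, the immediate early response and the p53 programme were among the 81 with a higher response, and genes of the amino acid stress response and of cholesterol synthesis among the 78 with a lower one.

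Rapamycin binds FKBP12 and the complex inhibits mTORC1, the kinase complex that couples amino acids, growth factors and energy to protein, lipid and nucleotide synthesis and that holds back autophagy. In myoblasts mTOR activity is also needed for differentiation into contractile fibres. Crebl2 is a small bZIP protein related to CREB, a transcription factor family that binds the cyclic AMP response element and is activated by cyclic AMP and growth factor signals. In bulk RNA of this kind, fewer cells of a type and less RNA per cell cannot be told apart.

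Crebl2, the target, came down under its siRNA with both agents. Levels are in CPM, the depth-scaled read rate of edgeR after TMM scaling. Under Luc, Crebl2 stood at 23.8, 25.3 and 26.2 CPM in ethanol and 40, 36.4 and 36.3 CPM in rapamycin. Under its own siRNA it stood at 4.87, 7.41 and 6.02 CPM in ethanol and 10.7, 8.97 and 9.49 CPM in rapamycin. No library with the Crebl2 siRNA reached the lowest Luc library, and rapamycin lay above ethanol with each siRNA without overlap. Of all tested genes, 50.4% had no overlap between rapamycin and ethanol libraries with Luc and 53.6% with Crebl2. These shares are the background for every statement below on overlap between rapamycin and ethanol. For overlap between the siRNAs under the same agent no such share was computed. The mean of Crebl2 was 75.7% lower with its siRNA in ethanol and 74.2% lower in rapamycin, so the groups compared differed in Crebl2 by a like proportion under both agents. Its own rapamycin rise was 1.5-fold with the Luc siRNA and 1.6-fold with the Crebl2 siRNA, and the interaction was 0.10 (log2, SE 0.15, edgeR adjusted p = 0.841), which was not called. Crebl2 lies on the plus strand at chr6:134830154-134858931 (GRCm38, GENCODE M21).

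Library totals ran from 33404087 to 42891015 counts, and the biological coefficient of variation was 6.85%. Of 12 myoblast markers, 10 averaged over 1 CPM, among them Myod1 (175 to 280 CPM) and Des (1380 to 1680 CPM), and their summed level was 3430 to 4720 CPM over the 12 libraries. The 8 endothelial and 8 immune markers summed to at most 1.13 and 0.623 CPM, with 2 and 4 of them at 0 in every library. The 11 neuronal markers summed to 413 to 455 CPM with the Luc siRNA and 1050 to 1220 CPM with the Crebl2 siRNA, although Rbfox3, Snap25, Syt1 and Elavl4 were at 0 throughout. That sum came from Stmn2, Nefl, Gap43, Tubb3 and Nefm, and no neuronal marker had a called interaction. Epithelial markers summed to 41.3 to 46.4 CPM (Luc siRNA, ethanol), 125 to 143 CPM (Luc siRNA, rapamycin), 45.5 to 53.9 CPM (Crebl2 siRNA, ethanol) and 77.8 to 89.9 CPM (Crebl2 siRNA, rapamycin), made up almost entirely of Krt14 and Sprr1a. These marker sums were not tested as a part of any result below.

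The rapamycin response was broadly alike with the 2 siRNAs. With the Luc siRNA 5441 genes were called (41.1% of those tested, 19.5% up and 21.6% down), and with the Crebl2 siRNA 6001 genes (45.3%, 19.7% up and 25.6% down). These 2 comparisons share no library. Both called 4342 genes, which is 79.8% of the Luc calls and 72.4% of the Crebl2 calls, and 4315 of them moved in the same direction. Across the tested genes the 2 log2 changes had Pearson's r = 0.78 and Spearman's rho = 0.76, given as a description because genes are not independent replicates. A change of at least 2-fold was called for 763 genes with the Luc siRNA and 861 with the Crebl2 siRNA. The median interaction over all tested genes was -0.03.

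Against that shared response the called interactions were few and mostly modest. The rule called 81 genes higher (0.611%) and 78 lower (0.589%), with a median size of 0.50 on the log2 scale. These 2 shares are the background for every count of called interactions in a gene list below. An interaction of at least 1.5-fold was called for 58 genes and of at least 2-fold for 8. With RLE scaling in place of TMM the split was 89 higher and 49 lower, so the higher share of the calls went from 50.9% to 64.5%, while the median over all tested genes moved to -0.01. Protein-coding genes made up 156 of the calls, and 46 of the 159 were members of the 42 gene lists used below. In simulated counts with known interactions the test recovered 34.0% of 97 genes changed 1.5-fold and 60.2% of 98 changed 2-fold, so a gene that was not called may still differ at these sizes.

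**Figure D1:**
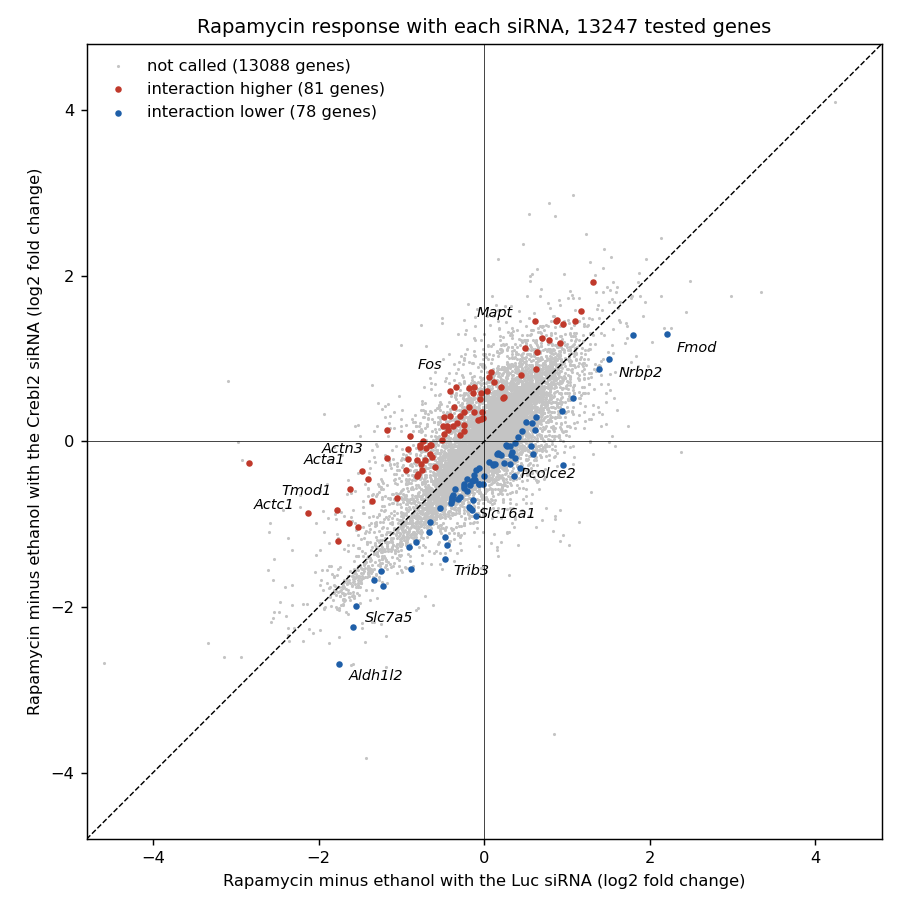
Each point is 1 of 13247 tested genes, with its log2 change between rapamycin and ethanol under the Luc siRNA on the horizontal axis and under the Crebl2 siRNA on the vertical axis. Red points are the 81 genes with a called higher interaction, blue points the 78 with a called lower one, grey points the genes not called, and the dashed line marks equal change. Called genes lie on either side of the line among both the rises and the falls, so both were altered.

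The 159 genes were sorted by the 2 estimated changes into 6 patterns. A fall that was smaller with the Crebl2 siRNA was seen in 30 genes, with a median change of -0.87 under the Luc siRNA and -0.29 under the Crebl2 siRNA. A rise that was smaller was seen in 12 genes (0.78 against 0.33). A larger rise was seen in 21 genes (0.63 against 1.13), and a larger fall in 43 genes, the most frequent pattern (-0.32 against -0.71). In 53 genes the 2 estimates had opposite signs. Of these, 30 had a negative change with Luc and a positive one with Crebl2 (median -0.29 against 0.29), and 23 the reverse (0.27 against -0.17). Both changes of opposite sign were themselves called in 23 genes. The medians describe the sorting and are no test of it.

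**Figure D2:**
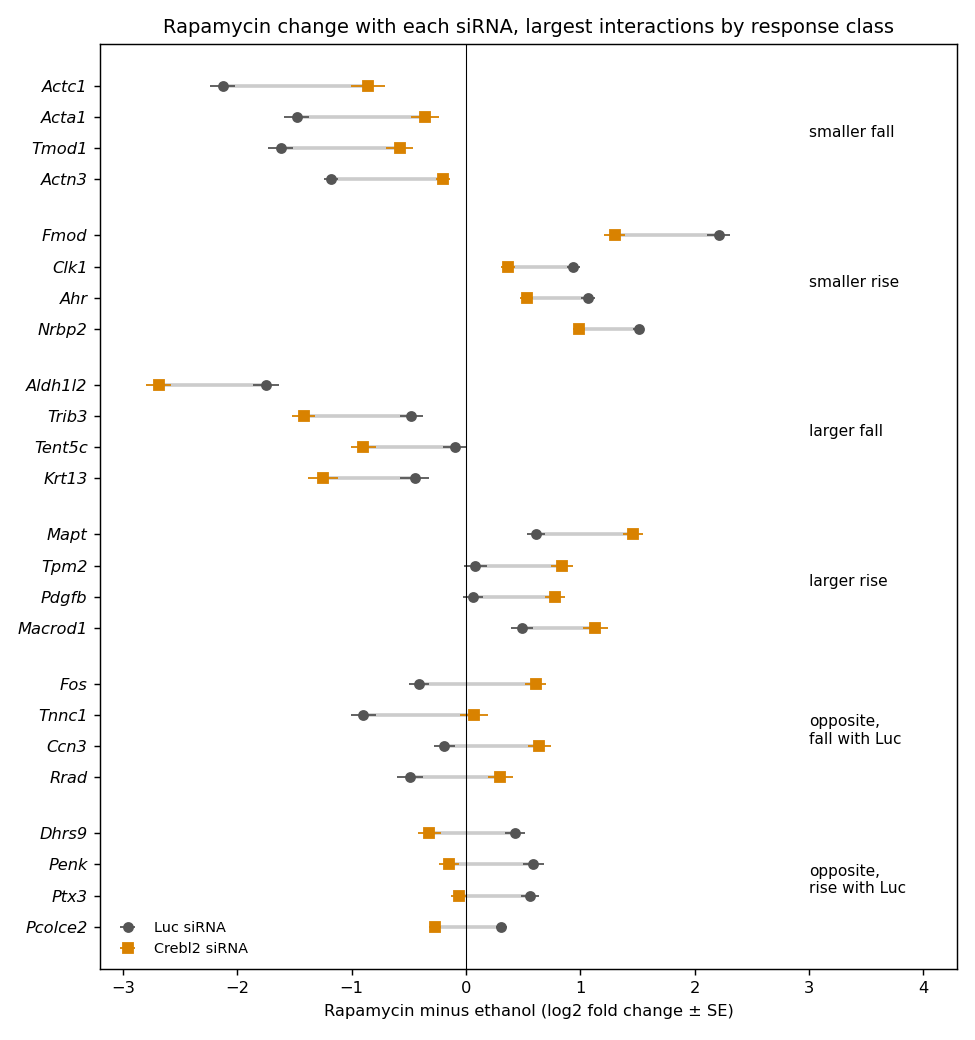
The log2 change between rapamycin and ethanol is shown for the 4 genes of largest interaction in each response pattern, as grey circles for the Luc siRNA and orange squares for the Crebl2 siRNA, with bars of 1 standard error from the edgeR fit. The widest separation is that of Actc1, from -2.13 to -0.86, and Fos, Tnnc1, Ccn3 and Rrad lie on opposite sides of 0.

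Of the genes of muscle contraction and differentiation, 7 had a rapamycin fall with Luc that was smaller, or for Tnnc1 not called, when Crebl2 was lowered. These were 7 called higher and none lower of 30 tested, and the list's median interaction was 0.43 against -0.03 over all tested genes. The median rapamycin change of these 30 genes was -1.22 with the Luc siRNA and -0.65 with the Crebl2 siRNA, with 27 and 18 of them called lower. Of all tested genes, 21.6% were called lower with Luc and 25.6% with Crebl2. The list was drawn up with earlier results of these libraries known, so its direction is no independent evidence.

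Actn3, which encodes the alpha-actinin of fast fibres, showed this most clearly (chr19:4861216-4877909, minus strand). It measured 192, 178 and 169 CPM with Luc in ethanol and 83.4, 77.4 and 76.6 CPM in rapamycin. Actn3 in the Crebl2 groups measured 184, 170 and 194 CPM in ethanol and 150, 168 and 162 CPM in rapamycin. The ethanol libraries of the 2 siRNAs overlapped, whereas every Crebl2 library in rapamycin lay well above every Luc library in rapamycin. The fall was 2.27-fold with Luc and 1.14-fold with Crebl2, and the interaction of 0.99 (SE 0.09, edgeR adjusted p = 0.000125) had the smallest p of all genes.

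For the 2 sarcomeric actins the starting levels differed as well. Acta1, skeletal muscle actin (chr8:123891769-123894751), measured 322, 304 and 236 CPM with Luc in ethanol and 113, 93.4 and 102 CPM in rapamycin. Levels of Acta1 with the Crebl2 siRNA were 35.4, 32.7 and 39.4 CPM in ethanol and 25.8, 26.6 and 31.9 CPM in rapamycin. Every Crebl2 library, with either agent, thus lay below every Luc library. Actc1, cardiac actin (chr2:114047282-114053548), measured 79.1, 77.5 and 61.3 CPM with Luc in ethanol and 18, 13.9 and 17.9 CPM in rapamycin. For Actc1, the Crebl2 siRNA gave 6.35, 6.06 and 6.4 CPM in ethanol and 2.92, 3.86 and 3.62 CPM in rapamycin. Here too the groups did not overlap, and the Crebl2 siRNA in ethanol already stood below the Luc siRNA in rapamycin. The interaction was 1.13 for Acta1 (SE 0.16, edgeR adjusted p = 0.00251) and 1.27 for Actc1 (SE 0.19, edgeR adjusted p = 0.00294). In proportion both genes fell less, 1.28-fold against 2.80-fold for Acta1 and 1.82-fold against 4.39-fold for Actc1.

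Tmod1, which caps the pointed ends of thin filaments (chr4:46038935-46116032), measured 15.2, 13.7 and 12.7 CPM with Luc in ethanol and 4.77, 4.59 and 4.2 CPM in rapamycin. Tmod1 in the Crebl2 groups measured 4.84, 5.79 and 5.78 CPM in ethanol and 3.48, 3.45 and 4.08 CPM in rapamycin. The Luc libraries in ethanol stood far above the other 3 groups. The fall was 3.07-fold with Luc and 1.49-fold with Crebl2 (interaction 1.04, edgeR adjusted p = 0.00371). Tnnc1, the calcium sensor of slow and cardiac troponin (chr14:31208312-31211729), measured 91, 79.3 and 63.9 CPM with Luc in ethanol and 47.7, 39.1 and 38.9 CPM in rapamycin. Levels of Tnnc1 with the Crebl2 siRNA were 22.2, 18.8 and 21.3 CPM in ethanol and 20.4, 22.4 and 22.6 CPM in rapamycin, and these 2 groups overlapped. The Tnnc1 fall of 0.90 with Luc therefore had no called counterpart with Crebl2 (log2 change 0.07, edgeR adjusted p = 0.673), and the interaction was 0.97 (edgeR adjusted p = 0.00657). The interactions of these 5 genes were called in all 12 refits that each left out 1 library.

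The other 2 called muscle genes, given here after their values were seen, were close to the threshold. Chrna1, the alpha subunit of the muscle acetylcholine receptor, had an interaction of 0.28 (edgeR adjusted p = 0.0482) and lost its call in 6 of the 12 refits, up to an adjusted p of 0.112. Myom2, an M-band protein, had 0.50 (edgeR adjusted p = 0.0493) and lost it in 8, up to 0.122. The libraries whose removal ended a call were Luc ethanol 1, 2 and 3, Crebl2 ethanol 1 and 2 and Crebl2 rapamycin 3 for both genes, with Crebl2 rapamycin 1 and Luc rapamycin 3 besides for Myom2. Myog, the differentiation factor, had an interaction of 0.27 (edgeR adjusted p = 0.64), and Des, the intermediate filament of muscle, one of 0.12 (edgeR adjusted p = 0.62). Neither was called.

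Among the 11 tested myoblast markers, 2 were called higher and none lower, with a median of 0.12. Itga7, the laminin-binding integrin of muscle (chr10:128933818-128958282), measured 1340, 1320 and 1310 CPM with Luc in ethanol and 745, 766 and 742 CPM in rapamycin. For Itga7, the Crebl2 siRNA gave 1310, 1170 and 1350 CPM in ethanol and 890, 984 and 979 CPM in rapamycin. The ethanol groups overlapped and the rapamycin groups did not. Its fall was 1.76-fold with Luc and 1.34-fold with Crebl2 (interaction 0.39, edgeR adjusted p = 0.019). Cdh15, the muscle cadherin, fell 1.74-fold with Luc and 1.31-fold with Crebl2 (interaction 0.41, edgeR adjusted p = 0.0239). The Cdh15 call ended without Crebl2 ethanol 1, Luc ethanol 1 or Luc ethanol 2, with an adjusted p of up to 0.0561.

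Genes of the Notch pathway responded higher with the Crebl2 siRNA in 5 of 20 tested cases, and none responded lower (median 0.08). Of all tested genes, 0.611% were called higher and 0.589% lower. Notch receptors release an intracellular domain that switches on Hes and Hey repressors. Hey1 measured 36.4, 31.6 and 29.9 CPM with Luc in ethanol and 11.7, 13.5 and 13 CPM in rapamycin, against 28.3, 30.1 and 32.8 CPM and 19, 18.6 and 17.8 CPM with the Crebl2 siRNA. In words, both siRNAs started from overlapping levels and the Crebl2 libraries in rapamycin all stayed above the Luc libraries in rapamycin. The fall was 2.56-fold with Luc and 1.65-fold with Crebl2 (interaction 0.64, edgeR adjusted p = 0.0123).

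Hes6 and Dtx4 fell with Luc and rose with Crebl2. Hes6, a Hes family member of differentiating muscle and nerve cells, measured 107, 93.9 and 91.1 CPM with Luc in ethanol and 76.4, 83.5 and 78.4 CPM in rapamycin. Hes6 in the Crebl2 groups measured 66.4, 65 and 73.4 CPM in ethanol and 86.3, 84.3 and 83.6 CPM in rapamycin, and rapamycin and ethanol overlapped with neither siRNA (interaction 0.60, edgeR adjusted p = 0.00294). Dtx4, a Deltex family ubiquitin ligase (chr19:12466338-12501454), measured 162, 162 and 153 CPM and then 134, 141 and 129 CPM with Luc, and 93.4, 106 and 105 CPM and then 129, 130 and 130 CPM with Crebl2. The Crebl2 siRNA thus stood below Luc in ethanol and overlapped it in rapamycin (interaction 0.59, edgeR adjusted p = 0.00105). The remaining 2 called genes, named after their values were seen, were Hes1 (0.73, edgeR adjusted p = 0.0177) and Heyl (0.58, edgeR adjusted p = 0.0126). Hes1 fell 1.67-fold with Luc and did not change detectably with Crebl2 (edgeR adjusted p = 0.978), and its call ended without Crebl2 ethanol 1 or Luc ethanol 2, up to an adjusted p of 0.0521.

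Immediate early genes respond within minutes to growth factor and MAP kinase signals. They had a higher response in 3 of 40 tested cases and a lower one in none (median 0.17). The shares over all tested genes were 0.611% and 0.589%. Fos, a subunit of the AP-1 factor (chr12:85473890-85477273), measured 25, 28 and 27.2 CPM with Luc in ethanol and 19.1, 23.1 and 17.9 CPM in rapamycin. Levels of Fos with the Crebl2 siRNA were 18.1, 16.4 and 16.4 CPM in ethanol and 23.8, 27.7 and 26.5 CPM in rapamycin. Rapamycin lay below ethanol in all Luc libraries and above it in all Crebl2 libraries. The change was -0.41 with Luc (SE 0.09, edgeR adjusted p = 0.00148) and 0.61 with Crebl2 (SE 0.09, edgeR adjusted p = 4.2e-05), and the interaction was 1.03 (SE 0.13, edgeR adjusted p = 0.00105).

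Nr4a1, an orphan nuclear receptor (chr15:101254269-101274795), measured 23.7, 27 and 23 CPM with Luc in ethanol and 20.7, 23.8 and 22.6 CPM in rapamycin. For Nr4a1, the Crebl2 siRNA gave 22.9, 23.9 and 23.6 CPM in ethanol and 33.9, 35.4 and 35.7 CPM in rapamycin, the one group that stood apart. Dusp1, a phosphatase that switches off MAP kinases (chr17:26505590-26562128), measured 236, 209 and 217 CPM and then 240, 268 and 254 CPM with Luc, and 179, 187 and 202 CPM and then 309, 294 and 293 CPM with Crebl2. For Dusp1 the Crebl2 libraries were the lowest in ethanol and the highest in rapamycin. Nr4a1 rose 1.49-fold with Crebl2 (interaction 0.71, edgeR adjusted p = 0.00208), and Dusp1 rose 1.15-fold with Luc and 1.58-fold with Crebl2 (0.46, edgeR adjusted p = 0.0118). Other members of the family were measured well and not called, such as Jun (0.22, edgeR adjusted p = 0.24) and Junb (0.24, edgeR adjusted p = 0.46).

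Targets of p53, which brakes the cell cycle and can trigger apoptosis, were called higher in 5 of 24 tested cases and lower in none. The shares over all tested genes were 0.611% and 0.589%, and the list's median was 0.00. Cdkn1a, the CDK inhibitor p21 (chr17:29090976-29100727), measured 295, 273 and 277 CPM with Luc in ethanol and 203, 219 and 202 CPM in rapamycin. Cdkn1a in the Crebl2 groups measured 272, 274 and 287 CPM in ethanol and 300, 310 and 308 CPM in rapamycin. The Luc libraries in rapamycin were the lowest group and the Crebl2 libraries in rapamycin the highest. Cdkn1a fell 1.35-fold with Luc and rose 1.1-fold with Crebl2 (interaction 0.58, SE 0.07, edgeR adjusted p = 0.000687). Pmaip1, the BH3 protein Noxa, measured 30.8, 30.9 and 28.1 CPM and then 22.3, 19.9 and 21.5 CPM with Luc, and 29.4, 33.6 and 31.2 CPM and then 35.7, 36.2 and 35.1 CPM with Crebl2. It followed the order of Cdkn1a (interaction 0.68, edgeR adjusted p = 0.00149).

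Btg2, an antiproliferative cofactor of mRNA deadenylation (chr1:134075170-134079120), measured 101, 107 and 102 CPM with Luc in ethanol and 99.4, 107 and 94.5 CPM in rapamycin. Levels of Btg2 with the Crebl2 siRNA were 86.5, 87.7 and 86.8 CPM in ethanol and 126, 133 and 132 CPM in rapamycin. The Luc groups overlapped, while the Crebl2 groups were the lowest and the highest of the 4. The interaction was 0.62 (SE 0.07, edgeR adjusted p = 0.000618). Plk2, a polo-like kinase, and Eda2r, a TNF receptor family member, complete the 5 and were named after their values were seen. Plk2 had an interaction of 0.35 (edgeR adjusted p = 0.00588), and Eda2r one of 0.60 (edgeR adjusted p = 0.0389) that lost its call without Crebl2 ethanol 1 or 3, Crebl2 rapamycin 3, or Luc ethanol 2 or 3, up to an adjusted p of 0.105. Rb1, the retinoblastoma protein, was called higher with Cdkn1a among 6 tested CDK inhibitors and pocket proteins (0.39, edgeR adjusted p = 0.0333). The list as a whole did not lean higher, with a median of -0.11. At an unadjusted p under 0.05, 2 of its genes were higher and 3 lower. The Rb1 call ended without Crebl2 ethanol 1 or 3 or Luc ethanol 2 or 3, up to an adjusted p of 0.0961.

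Promoter sequence was looked at because Crebl2 belongs to the CREB-related bZIP proteins and because the stress genes below are known targets of ATF4, another bZIP factor. The 250 bases before the annotated start of each gene were taken from RefSeq (GRCm38.p6), which gave a promoter for 9201 tested genes, 48 genes with a higher interaction and 59 with a lower one. Both strands were searched for the cyclic AMP response element TGACGTCA, for its shorter core TGACGT, which every TGACGTCA also contains, and for TGATGNAA, a composite C/EBP-ATF element. TGACGTCA was found in 2.98% of all these promoters, in 4 of the 48 higher genes (8.33%: Btg2, Dio2, Dusp1 and Plk2) and in 1 of the 59 lower ones (1.69%: Ints7). TGACGT was found in 11.4% of all, in 7 higher genes (14.6%) and in 1 lower gene. TGATGNAA was found in 2.36% of all, in 2 higher genes (Chrna1 and Gadd45g) and in 2 lower ones (Chac1 and Emilin2). Genes known by these matches alone were named after the search. The numbers are small, no test was made, and a match is a description of letters and not a binding site.

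The 5 promoters below are part of those of described genes that held a match. Those of Ccn1 (TGACGT) and of Chrna1 and Gadd45g (TGATGNAA) are not printed. The letters run 5' to 3' on the gene's strand with the matches in capitals (TGACGTCA in Btg2, Plk2 and Dusp1, TGACGT in Fos and once more in Dusp1, and TTGCATCA, which is TGATGNAA read on the other strand, in Chac1). The printed promoters lie at chr1:134079156-134079405 (minus strand), chr13:110394794-110395043 (plus), chr17:26508473-26508722 (minus), chr12:85473640-85473889 (plus) and chr2:119350992-119351241 (plus). Counted from the start, the matches begin at -166, -62, -143, -66 and -193 in that order, and the second match in Dusp1, TGACGT alone, begins at -191.
Btg2: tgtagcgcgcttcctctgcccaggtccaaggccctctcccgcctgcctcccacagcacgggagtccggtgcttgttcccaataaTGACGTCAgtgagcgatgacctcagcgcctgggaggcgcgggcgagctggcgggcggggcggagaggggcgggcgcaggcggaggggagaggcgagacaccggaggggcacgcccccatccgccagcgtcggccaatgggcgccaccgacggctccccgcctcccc
Plk2: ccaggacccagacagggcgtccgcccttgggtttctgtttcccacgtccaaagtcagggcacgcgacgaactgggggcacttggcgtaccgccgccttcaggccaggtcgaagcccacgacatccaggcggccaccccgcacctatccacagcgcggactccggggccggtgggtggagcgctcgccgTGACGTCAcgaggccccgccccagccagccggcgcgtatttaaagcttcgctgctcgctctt
Dusp1: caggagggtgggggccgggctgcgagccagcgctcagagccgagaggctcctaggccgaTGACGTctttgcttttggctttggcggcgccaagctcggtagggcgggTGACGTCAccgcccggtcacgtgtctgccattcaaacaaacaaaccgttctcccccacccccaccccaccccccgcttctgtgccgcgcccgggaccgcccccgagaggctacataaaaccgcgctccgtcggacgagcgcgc
Fos: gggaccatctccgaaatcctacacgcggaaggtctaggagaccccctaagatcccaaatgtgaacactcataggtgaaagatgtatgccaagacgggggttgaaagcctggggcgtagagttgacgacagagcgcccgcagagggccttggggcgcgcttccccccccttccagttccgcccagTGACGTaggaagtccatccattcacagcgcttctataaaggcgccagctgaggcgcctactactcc
Chac1: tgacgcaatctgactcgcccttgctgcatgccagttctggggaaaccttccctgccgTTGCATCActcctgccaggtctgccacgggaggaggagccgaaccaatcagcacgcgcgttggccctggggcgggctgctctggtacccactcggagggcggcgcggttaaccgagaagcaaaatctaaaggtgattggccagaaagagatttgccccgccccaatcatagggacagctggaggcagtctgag

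**Figure D3:**
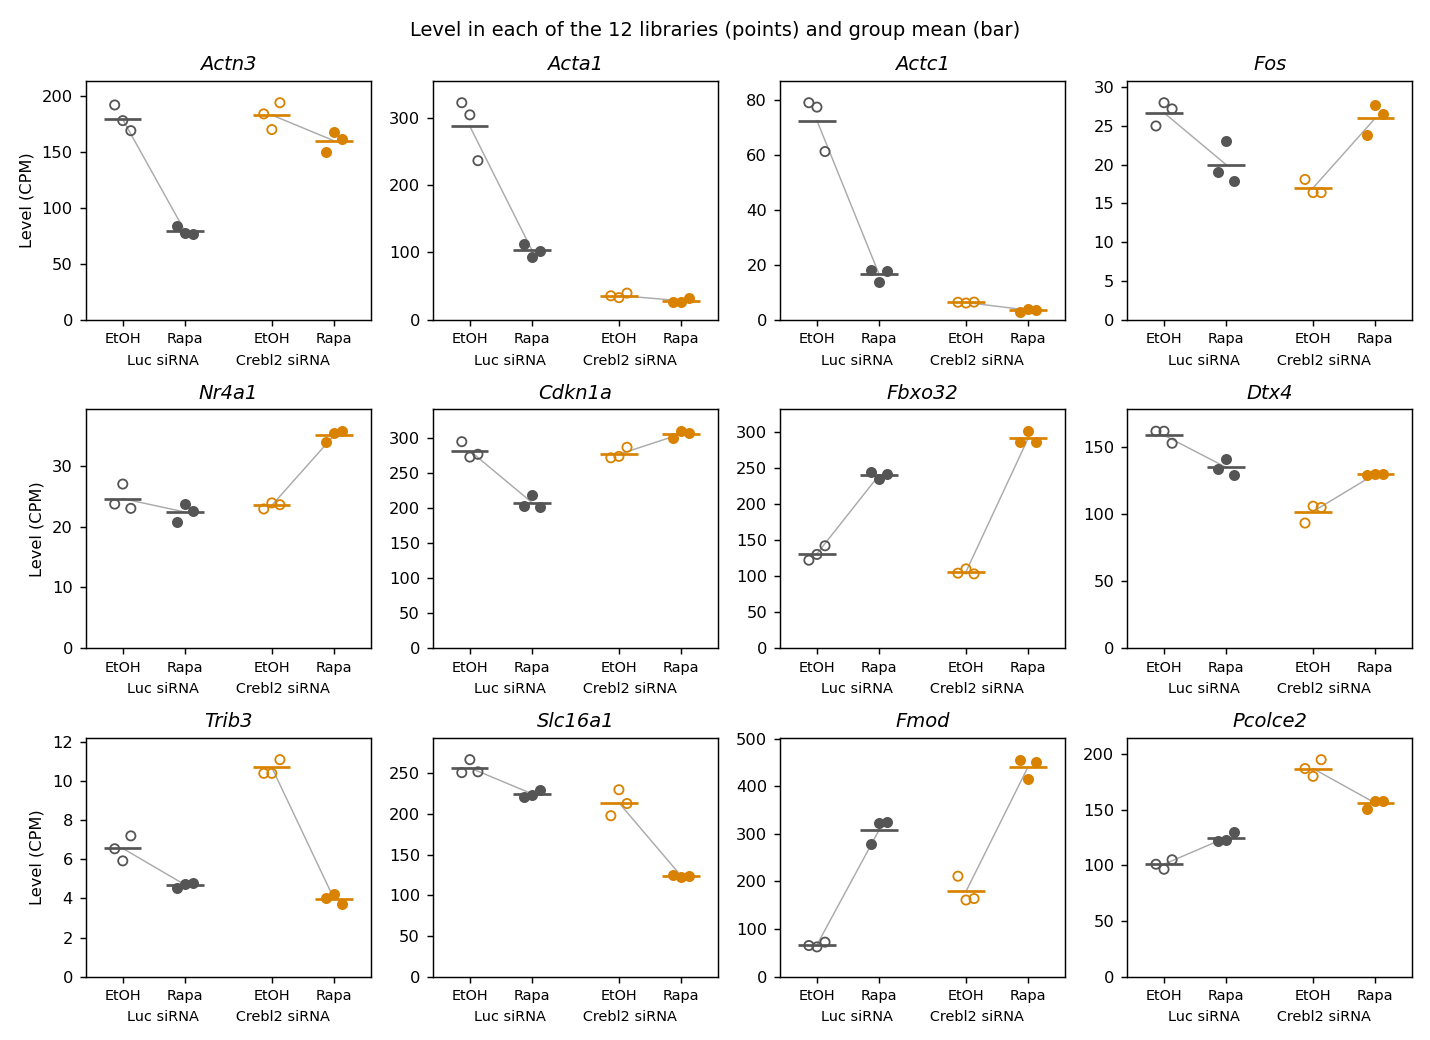
Level in CPM after TMM scaling of 12 genes in each of the 12 libraries (open circles ethanol, filled circles rapamycin, grey Luc siRNA, orange Crebl2 siRNA), with a bar at each group mean, a line joining the means under 1 siRNA and all axes starting at 0. Fos, Cdkn1a and Dtx4 turn from a fall with Luc to a rise with Crebl2, Pcolce2 turns the other way, and Acta1 and Actc1 start from a lower level with the Crebl2 siRNA.

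Several genes rose more in rapamycin when Crebl2 was lowered. Fbxo32, the atrophy ubiquitin ligase atrogin-1 and a FoxO target (chr15:58175879-58214932), measured 122, 130 and 142 CPM with Luc in ethanol and 245, 235 and 241 CPM in rapamycin. For Fbxo32, the Crebl2 siRNA gave 104, 110 and 103 CPM in ethanol and 286, 301 and 286 CPM in rapamycin. The Crebl2 groups were thus the lowest and the highest. Its rise was 1.83-fold with Luc and 2.75-fold with Crebl2 (interaction 0.59, edgeR adjusted p = 0.00105). It was the single called gene among 28 tested FoxO targets, whose median interaction was 0.03.

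Mapt, the microtubule-associated protein tau, measured 15, 15.1 and 15.1 CPM with Luc in ethanol and 23.2, 21.7 and 24.3 CPM in rapamycin. Mapt in the Crebl2 groups measured 4.9, 5.16 and 6.14 CPM in ethanol and 14.2, 14 and 16.5 CPM in rapamycin. The Crebl2 siRNA lay below Luc without overlap under each agent, by a smaller margin in rapamycin. The rise was 1.53-fold with Luc and 2.74-fold with Crebl2 (interaction 0.84, edgeR adjusted p = 0.00362). Pdgfb, a growth factor chain, measured 13.3, 14.7 and 12.2 CPM and then 13.2, 15 and 13.7 CPM with Luc, and 16.6, 14.2 and 15.6 CPM and then 25.5, 29.2 and 25.1 CPM with Crebl2. The Crebl2 libraries in rapamycin stood above the other 3 groups, a rise of 1.72-fold, while the Luc groups overlapped (interaction 0.72, edgeR adjusted p = 0.00876). Hist1h1c, a linker histone, rose 1.64-fold with Crebl2, with overlapping groups under Luc (interaction 0.59, edgeR adjusted p = 0.00476).

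Of 27 tested genes of the SRF and YAP contractile programme, 3 were called higher and none lower (median 0.23), and their median rapamycin change was 0.43 with Luc and 0.72 with Crebl2. Ccn1, a matricellular YAP target, measured 1200, 1170 and 1210 CPM with Luc in ethanol and 1630, 1720 and 1520 CPM in rapamycin. Levels of Ccn1 with the Crebl2 siRNA were 1030, 1010 and 1070 CPM in ethanol and 1810, 1730 and 1860 CPM in rapamycin, so the ethanol level was lower and the rapamycin level higher than with Luc (interaction 0.35, edgeR adjusted p = 0.0177). Cnn2, a calponin, had an interaction of 0.26 (edgeR adjusted p = 0.0457) and lost its call in 7 of 12 refits, without any 1 ethanol library or without Luc rapamycin 3, up to an adjusted p of 0.115. Tpm2, beta-tropomyosin, had 0.76 (edgeR adjusted p = 0.0159), but 8.69% of its exonic bases belonged to a single listed transcript, so its counts cover a small part of the gene. Ccn3, a relative of Ccn1, measured 61.1, 60 and 57.4 CPM and then 57.6, 47.6 and 51.5 CPM with Luc, and 30.7, 33.4 and 33.9 CPM and then 55.9, 41.6 and 54.9 CPM with Crebl2. The siRNAs were apart in ethanol and overlapped in rapamycin (interaction 0.83, edgeR adjusted p = 0.00586).

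Macrod1, an ADP-ribose hydrolase, and Rrad, a small GTPase of muscle, were called less firmly. Macrod1 had an interaction of 0.64 (edgeR adjusted p = 0.0458) and kept its call in 4 of 12 refits, up to an adjusted p of 0.115. It lost it without Crebl2 ethanol 1 or 2, Crebl2 rapamycin 1 or 3, Luc ethanol 1 or 2, or Luc rapamycin 1 or 3. Rrad had 0.79 (edgeR adjusted p = 0.023) and lost its call without Luc ethanol 2, at an adjusted p of 0.0585.

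In the ATF4 amino acid response, 4 genes fell more in rapamycin when Crebl2 was lowered. ATF4 is translated under amino acid or ER stress, and also under mTORC1, and switches on amino acid uptake and synthesis. Of 26 tested genes, 4 had a called lower interaction and none a higher one, against 0.589% and 0.611% of all tested genes. The list's median interaction was -0.10, against -0.03 over all tested genes. Of the 26 genes, 20 fell with Luc against 23 with Crebl2 (median change -0.52 and -0.77). Over all tested genes the share called lower was also larger with Crebl2, 25.6% against 21.6% with Luc. Atf4 itself was not called (0.15, edgeR adjusted p = 0.27).

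Trib3, a pseudokinase that feeds back on ATF4 (chr2:152337422-152344032), measured 6.54, 5.92 and 7.2 CPM with Luc in ethanol and 4.52, 4.76 and 4.81 CPM in rapamycin. For Trib3, the Crebl2 siRNA gave 10.4, 10.4 and 11.1 CPM in ethanol and 4.01, 4.24 and 3.71 CPM in rapamycin. The Crebl2 groups were the highest and the lowest of the 4. It fell 1.39-fold with Luc and 2.67-fold with Crebl2 (interaction -0.94, SE 0.14, edgeR adjusted p = 0.00296). Chac1, which degrades glutathione (chr2:119351229-119354381), measured 15.7, 15.9 and 15 CPM and then 10.3, 11.9 and 11 CPM with Luc, and 23, 23.1 and 25.9 CPM and then 10.9, 11.2 and 10.3 CPM with Crebl2. Its Crebl2 libraries stood higher in ethanol and overlapped the Luc libraries in rapamycin (interaction -0.67, edgeR adjusted p = 0.0053).

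Slc7a5, the light chain of the LAT1 transporter that imports leucine, measured 160, 147 and 152 CPM with Luc in ethanol and 50.6, 53.6 and 52 CPM in rapamycin. Slc7a5 in the Crebl2 groups measured 233, 224 and 239 CPM in ethanol and 54.6, 60.9 and 59.5 CPM in rapamycin. The gap between the siRNAs was wide in ethanol and narrow in rapamycin, without overlap in either. It fell 2.94-fold with Luc and 3.98-fold with Crebl2 (interaction -0.44, edgeR adjusted p = 0.00588). Slc1a5, a glutamine transporter named after its values were seen, had -0.39 (edgeR adjusted p = 0.00876), with an adjusted p of up to 0.0969 when 1 of Crebl2 rapamycin 1 or 3 or of the 3 Luc rapamycin libraries was left out. Aldh1l2, a mitochondrial folate enzyme outside this list, fell 3.36-fold with Luc and 6.45-fold with Crebl2 (interaction -0.94, edgeR adjusted p = 0.00751), on counts that cover 36.4% of its exonic bases.

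In cholesterol synthesis, 3 genes fell more with the Crebl2 siRNA. Of 27 tested genes of cholesterol synthesis and uptake, 3 were called lower and none higher, with a median of -0.16, and at an unadjusted p under 0.05 there were 14 lower and 1 higher. Over all 13247 tested genes, 1194 were lower and 698 higher at that unadjusted p. Msmo1, a sterol oxidase, measured 203, 195 and 211 CPM with Luc in ethanol and 115, 108 and 122 CPM in rapamycin. Levels of Msmo1 with the Crebl2 siRNA were 190, 217 and 212 CPM in ethanol and 85.2, 92.1 and 88.9 CPM in rapamycin, so the ethanol groups overlapped and the rapamycin groups did not. Its interaction was -0.40 (edgeR adjusted p = 0.0267). Acat2, an acetoacetyl-CoA thiolase, had an interaction of -0.35 (edgeR adjusted p = 0.0481), on counts that cover 37.5% of its exonic bases. Neither call was firm, since leaving out 1 library ended that of Msmo1 in 8 and of Acat2 in all 12 refits, with adjusted p-values of up to 0.195 and 0.264. Msmo1 was still called without Crebl2 ethanol 1, Luc ethanol 1 or 3 or Luc rapamycin 2. Hmgcs1 (-0.26, edgeR adjusted p = 0.058), named after its values were seen, was not called.

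Metabolic genes of other lists were called singly. Slc16a1, the monocarboxylate transporter MCT1 that carries lactate (chr3:104638668-104658462), measured 251, 267 and 252 CPM with Luc in ethanol and 221, 224 and 230 CPM in rapamycin. For Slc16a1, the Crebl2 siRNA gave 198, 230 and 213 CPM in ethanol and 125, 123 and 124 CPM in rapamycin, below every library of the other 3 groups. It fell 1.14-fold with Luc and 1.72-fold with Crebl2 (interaction -0.60, SE 0.07, edgeR adjusted p = 0.00101). G6pdx, the entry enzyme of the pentose phosphate pathway (chrX:74409483-74429194), measured 243, 241 and 255 CPM and then 232, 244 and 232 CPM with Luc, and 315, 296 and 299 CPM and then 201, 222 and 213 CPM with Crebl2. The Luc groups overlapped, and the Crebl2 groups were the highest and the lowest (interaction -0.46, edgeR adjusted p = 0.00294). Srxn1, a sulfiredoxin of the NRF2 list (-0.28, edgeR adjusted p = 0.0301), and Edem1, of ER-associated degradation (-0.23, edgeR adjusted p = 0.0479), had small interactions. Srxn1 kept its call in 1 refit, without Crebl2 ethanol 1, and Edem1 in none, with adjusted p-values of up to 0.247 and 0.328.

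Tent5c, a poly(A) polymerase, measured 7.9, 7.61 and 8.83 CPM with Luc in ethanol and 7.88, 7.06 and 7.8 CPM in rapamycin. Tent5c in the Crebl2 groups measured 5.99, 5.82 and 5.47 CPM in ethanol and 3.48, 2.76 and 2.98 CPM in rapamycin. Rapamycin and ethanol overlapped with Luc and were apart with Crebl2 (interaction -0.80, edgeR adjusted p = 0.0145). Its call ended without Crebl2 rapamycin 2 or 3 or Luc rapamycin 1 or 3, up to an adjusted p of 0.0792. Krt13, a keratin, had the same interaction of -0.80 (edgeR adjusted p = 0.0458) and kept its call in 2 refits, without Crebl2 rapamycin 2 or Luc ethanol 1, with an adjusted p of up to 0.191 in the others.

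Extracellular matrix genes went both ways, with 2 called higher and 4 lower of 49 tested and a median of 0.00. Fmod, the collagen-binding proteoglycan fibromodulin (chr1:134037254-134048277), measured 65.3, 62.4 and 72.4 CPM with Luc in ethanol and 279, 322 and 324 CPM in rapamycin. Levels of Fmod with the Crebl2 siRNA were 211, 161 and 164 CPM in ethanol and 456, 415 and 452 CPM in rapamycin. Each Crebl2 group lay above the Luc group under the same agent. The rise was 4.62-fold with Luc and 2.46-fold with Crebl2 (interaction -0.91, SE 0.13, edgeR adjusted p = 0.00274), yet in CPM the increase with Crebl2 was larger by 20.4 CPM, so the sign of this interaction holds on the log scale alone. Among the 159 genes, Smoc2, Alox5, Mustn1 and Slc14a1 also differed in sign between the 2 scales, and these were named after their values were seen.

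Lox, the enzyme that cross-links collagen, rose 1.52-fold with Luc, while its Crebl2 groups overlapped (interaction -0.47, edgeR adjusted p = 0.0109). Its counts cover 7.26% of its exonic bases, and its call ended without Crebl2 rapamycin 2 or 3 or Luc rapamycin 1 or 3, up to an adjusted p of 0.0969. Col6a1, a collagen VI chain, measured 1690, 1700 and 1720 CPM and then 1830, 1900 and 1850 CPM with Luc, and 1080, 928 and 994 CPM and then 824, 822 and 848 CPM with Crebl2. Rapamycin libraries lay above ethanol with Luc and below it with Crebl2 (interaction -0.40, edgeR adjusted p = 0.00876). The Col6a1 call ended without Crebl2 rapamycin 1 or 3 or Luc rapamycin 3, up to an adjusted p of 0.0619. The other called matrix genes, named after their values were seen, were Smoc2 (-0.52, edgeR adjusted p = 0.0458) and the proteases Adamts1 (0.60) and Adamts5 (0.50), both with an edgeR adjusted p of 0.0249. Smoc2 kept its call in 1 refit, without Crebl2 ethanol 2, with an adjusted p of up to 0.215 in the others. Both protease calls ended without Crebl2 ethanol 2 or 3 or Luc ethanol 2 or 3, that of Adamts1 also without Crebl2 ethanol 1, up to adjusted p-values of 0.0652 (Adamts1) and 0.0591 (Adamts5).

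Pcolce2, an enhancer of procollagen processing that no list held (chr9:95637601-95698096), measured 101, 96.5 and 105 CPM with Luc in ethanol and 122, 123 and 130 CPM in rapamycin. For Pcolce2, the Crebl2 siRNA gave 187, 180 and 195 CPM in ethanol and 151, 158 and 158 CPM in rapamycin. Rapamycin lay above ethanol in every Luc library and below it in every Crebl2 library. The change was 0.31 with Luc and -0.27 with Crebl2, both called, and the interaction was -0.58 (SE 0.07, edgeR adjusted p = 0.000687). Penk, the enkephalin precursor, measured 8.49, 8.01 and 7.84 CPM and then 12.1, 13.2 and 11.2 CPM with Luc, and 16.2, 18.1 and 17.3 CPM and then 15.2, 13.8 and 17.3 CPM with Crebl2. It rose 1.5-fold with Luc, and its Crebl2 groups overlapped (interaction -0.74, edgeR adjusted p = 0.00843).

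Dkk2, a secreted Wnt modulator and the single called gene of 32 tested in the Wnt list, measured 46.3, 46.5 and 52.5 CPM with Luc in ethanol and 60.6, 52.8 and 58.3 CPM in rapamycin. Dkk2 in the Crebl2 groups measured 61.8, 64.1 and 62.4 CPM in ethanol and 51, 55.1 and 51.2 CPM in rapamycin, a fall in place of a rise (interaction -0.50, edgeR adjusted p = 0.00873). Ptx3, a soluble pentraxin, had an interaction of -0.62 (edgeR adjusted p = 0.00773), and Dhrs9, a retinol dehydrogenase, one of -0.75 (edgeR adjusted p = 0.0123). The calls of Dkk2 and Dhrs9 ended without Crebl2 rapamycin 1 or 3 or Luc rapamycin 1 or 3, up to adjusted p-values of 0.0801 and 0.0826, and that of Ptx3 without Luc rapamycin 3, at 0.0544.

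In a small group of genes a strong rapamycin rise was smaller with the Crebl2 siRNA. Ahr, the aryl hydrocarbon receptor, measured 36.5, 38.4 and 39.4 CPM with Luc in ethanol and 83.4, 78.4 and 78.7 CPM in rapamycin. Levels of Ahr with the Crebl2 siRNA were 64, 57.6 and 55.9 CPM in ethanol and 89, 81.7 and 84.8 CPM in rapamycin, so the siRNAs were apart in ethanol and overlapped in rapamycin (interaction -0.55, edgeR adjusted p = 0.00294). Nrbp2, a pseudokinase, measured 63.1, 67.3 and 61.1 CPM and then 181, 183 and 183 CPM with Luc, and 37.6, 39 and 39.2 CPM and then 77.6, 73.9 and 79.3 CPM with Crebl2. The Crebl2 siRNA lay below Luc under both agents, more so in rapamycin (interaction -0.52, SE 0.07, edgeR adjusted p = 0.00105). Clk1, a kinase of splicing factors, measured 97, 95.3 and 103 CPM and then 202, 173 and 192 CPM with Luc, and 107, 108 and 111 CPM and then 150, 128 and 142 CPM with Crebl2. Its rise was 1.92-fold with Luc and 1.29-fold with Crebl2 (interaction -0.57, edgeR adjusted p = 0.00476).

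Of the 42 lists, 25 held no called gene, among them the pathways that rapamycin is best known for. None of 46 tested genes of the mTORC1 pathway was called (median -0.05), with 1 higher and 6 lower at an unadjusted p under 0.05 and 0 in DESeq2. Among 55 cell cycle genes, 53 fell with Luc and 52 with Crebl2 (median change -1.42 and -1.50), against 21.6% and 25.6% of all tested genes. None of the 55 had a called interaction (median -0.08, 2 higher and 7 lower at an unadjusted p under 0.05, 1 higher in DESeq2). For 62 genes of ribosome biogenesis the median change was -0.31 and -0.43. Their median interaction was -0.11, about that of the ATF4 list (-0.10), with 0 called. At an unadjusted p under 0.05, 13 were lower and 0 higher, and DESeq2 called 1 lower. For 73 ribosomal protein and elongation genes the median change was 0.34 and 0.44, with 0 called, 4 higher at an unadjusted p under 0.05 and 1 higher in DESeq2. Of 65 genes of oxidative phosphorylation none was called (median 0.04, 3 higher at an unadjusted p under 0.05, 1 higher in DESeq2). Of 57 lysosome and autophagy genes none was called (median 0.02, 4 higher and 3 lower at an unadjusted p under 0.05, 1 each way in DESeq2). Nor was any of the 20 tested CREB family and coactivator genes (median -0.04, 2 higher and 4 lower at an unadjusted p under 0.05, 1 each way in DESeq2). For all of these lists the background at an unadjusted p under 0.05 was 698 higher and 1194 lower of 13247 tested genes, so it leaned to lower. A call that was missed is no evidence that the responses were equal.

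**Figure D4:**
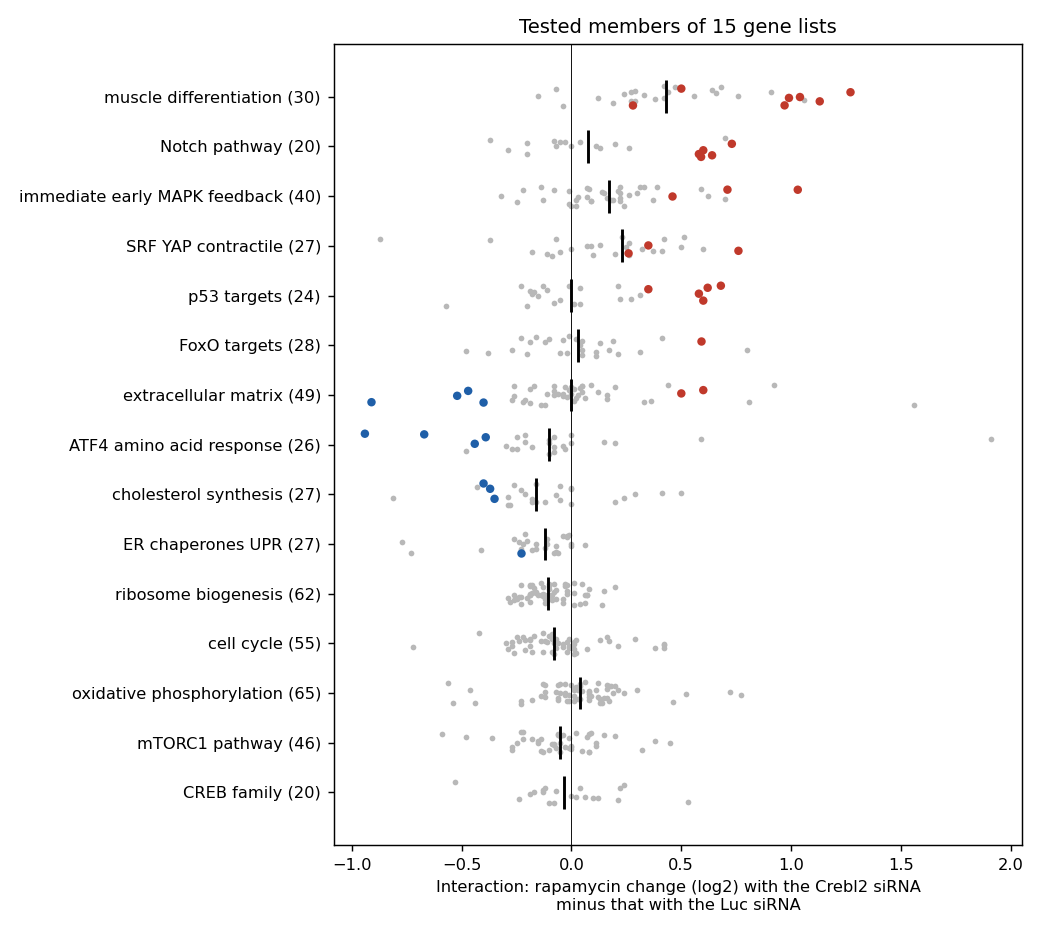
The log2 interaction of every tested member of 15 gene lists, with the number tested in parentheses, red points called higher, blue points called lower, grey points not called and a black bar at the list's median. Muscle differentiation has its median at 0.43, and ATF4 and cholesterol genes have medians of -0.10 and -0.16. The mTORC1, cell cycle and ribosome biogenesis lists hold no called gene, with medians of -0.05, -0.08 and -0.11. The ribosome biogenesis median is thus about that of the ATF4 list.

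Of the 51 named genes with a called interaction, 34 were called in all 12 refits without 1 library and 32 of these, without Itga7 and Ccn1, also with RLE scaling, with DESeq2 and with the replicate number in the design. Of all 159 genes, 64 were called in all 12 refits and 61 also under those 3 alternatives. The interactions of 8 genes reached 2-fold. Besides Actc1, Acta1, Tmod1 and Fos these were Ankrd2 (2.58), Vma21 (1.31), 5031415H12Rik (1.01) and Esyt3 (-1.24), which averaged under 5 CPM and are named after their values were seen. Vma21, a V-ATPase assembly factor, was called in all 12 refits (edgeR adjusted p = 0.00272), on counts that cover 16.1% of its exonic bases, and DESeq2 gave it no adjusted p. Ankrd2, a muscle ankyrin repeat protein, measured 1.97, 1.76 and 1.1 CPM with Luc in ethanol and 0.116 to 0.227 CPM in the other 9 libraries (edgeR adjusted p = 0.0377), and kept its call in 1 of 12 refits, without Luc ethanol 3.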

How the data were processed

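Total RNA of 12 C2C12 libraries, 3 in each of 4 groups, was sequenced from a stranded kit, per the labels' protocols. The deposited values are unscaled whole-number read counts per Ensembl transcript. The submitters' processing notes list Trim Galore, TopHat and HTSeq without versions, and both mm9 and GRCm38. The annotation release, strand setting and rule for reads shared by several transcripts are not given in the sources used here. As the strand setting is unknown, values of genes with an overlapping antisense gene are uncertain.

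Transcript identifiers were matched to GENCODE M21 on GRCm38 (58264 of 58611, 99.41%), and the 347 without a match, which held 0.038% of the reads, were left out. Counts were summed per gene, since the tests had been planned on counts per gene. Reads that overlap several listed transcripts appear to be missing, so the percentage of exonic bases that belong to a single listed transcript is given where it is low. It was 100% for 123 of the 159 called genes and under 50% for 11.

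The edgeR filter (groups given, minimum count 10) kept 13247 genes. One quasi-likelihood fit of edgeR 4.0.16 (limma 3.58.1, R 4.3.3) on TMM-scaled libraries held a mean per group and all 12 libraries. Calls were made at 0.05 after Benjamini-Hochberg adjustment across the tested genes. Named genes are Crebl2, the 4 largest interactions in each of the 6 response patterns, the 6 largest in each direction (protein-coding, a mean of at least 5 CPM, no predicted symbol) and up to 3 called members with the smallest p of each of 42 lists, in which 2 names had no match. Of the genes so picked, 1 is not reported here. Members and lists were chosen with earlier results of these data known.

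The test was run on simulated counts for 13078 genes, where false calls made up 9.8% of 102. Alternatives were RLE scaling, DESeq2 1.42.0, other count filters, protein-coding genes, genes with at least 90% countable bases, single transcripts, a replicate block and leaving out each library.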

Additional observations from a re-analysis of the deposited data

Results flagged for a closer look

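For 50 named genes the rapamycin change differed between the Crebl2 and the Luc siRNA by the interaction test in edgeR, and each value below is that difference on the log2 scale. Higher responses with the Crebl2 siRNA were found for the muscle genes Actc1 (1.27), Acta1 (1.13), Tmod1 (1.04), Actn3 (0.99), Tnnc1 (0.97), Cdh15 (0.41) and Itga7 (0.39). The immediate early, growth factor and matricellular genes were Fos (1.03), Ccn3 (0.83), Pdgfb (0.72), Nr4a1 (0.71), Dusp1 (0.46) and Ccn1 (0.35). Notch genes were Hey1 (0.64), Hes6 (0.60) and Dtx4 (0.59), and cell cycle brakes and p53 targets were Pmaip1 (0.68), Btg2 (0.62), Cdkn1a (0.58) and Rb1 (0.39). The others were Mapt (0.84), Rrad (0.79), Tpm2 (0.76), Macrod1 (0.64), Fbxo32 (0.59), Hist1h1c (0.59) and Cnn2 (0.26).

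Lower responses with the Crebl2 siRNA were found for the amino acid, transport and metabolic genes Aldh1l2 (-0.94), Trib3 (-0.94), Chac1 (-0.67), Slc16a1 (-0.60), G6pdx (-0.46), Slc7a5 (-0.44) and Srxn1 (-0.28). Sterol genes were Msmo1 (-0.40) and Acat2 (-0.35). Matrix and secreted genes were Fmod (-0.91), Penk (-0.74), Ptx3 (-0.62), Pcolce2 (-0.58), Dkk2 (-0.50), Lox (-0.47) and Col6a1 (-0.40). The others were Tent5c (-0.80), Krt13 (-0.80), Dhrs9 (-0.75), Clk1 (-0.57), Ahr (-0.55), Nrbp2 (-0.52) and Edem1 (-0.23).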

How the results depend on the processing

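The count of called interactions moved with the processing, while none of the 159 called genes changed sign in a gene-level refit. DESeq2 called 195 genes higher and 196 lower, against 81 and 78 in edgeR, and 155 of the 159 were among them. With RLE scaling 49 were called lower, and 130 of the 159 were shared. Without a count filter 310 were called higher, and transcripts tested one by one gave 136 genes higher and 35 lower. Leaving out each library in turn gave 56 to 136 higher and 18 to 63 lower, with 64 genes called every time. At an adjusted p under 0.01 the patterns held 6 genes (smaller rise), 13 (smaller fall), 7 (larger rise), 12 (larger fall), 7 (opposite, rise with Luc) and 16 (opposite, fall with Luc). Crebl2's own interaction was -0.04 to 0.25 in the refits that left out 1 library, negative without Crebl2 ethanol 1 alone. On the linear scale the interaction of Fmod was 20.4 CPM, opposite in sign to that on the log2 scale. Fmod was 1 of 5 called genes with such a difference, and its mean in ethanol was 66.7 CPM with Luc and 179 CPM with Crebl2. Why results moved between settings was not tested. Counts for rapamycin with either siRNA stayed within 1.5 times under every alternative run.

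Replicate numbers are shared between groups in the labels, but nothing there says that they mark a common culture or day. Deviations from the group means correlated at -0.292 to 0.124 in the 18 pairs of libraries with the same number and at -0.315 to 0.374 in other pairs, and 3 of 12 libraries correlated best with their own number, so they were not treated as pairs. With the number as a replicate block, 55 genes were called higher and 36 lower, 88 of them among the 159, and 39 of the 51 named genes kept their call. Those that did not included Itga7 (adjusted p = 0.0585 with the block) and Ccn1 (0.0626), which were called in all 12 refits without 1 library, and Rrad, Cdh15, Rb1, Srxn1, Krt13, Acat2, Macrod1, Cnn2 and Edem1 (0.0585 to 0.126). Depth limits the low genes, such as those under 5 CPM.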

Other observations

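Some called genes form groups that no list held. They were picked after their values were seen and are given as values with no test of the group. Further genes, some of them of muscle structure, fell in rapamycin with the Luc siRNA and did not fall as far with the Crebl2 siRNA, or rose. Myo18b, an unconventional myosin of muscle, measured 24.4, 26.7 and 24 CPM with Luc in ethanol and 14.3, 11.8 and 13.8 CPM in rapamycin, while its Crebl2 groups overlapped at 15, 12.4 and 16.3 CPM and 13.6, 13.8 and 13.9 CPM (interaction 0.83, edgeR adjusted p = 0.00588). Trim55, a titin-associated ubiquitin ligase, fell 1.30-fold with Luc and rose 1.14-fold with Crebl2 (interaction 0.58, edgeR adjusted p = 0.00274). Interactions were 0.58 for Myl6b, a myosin light chain (edgeR adjusted p = 0.0126), and 0.50 for Klhl30 (edgeR adjusted p = 0.011), and neither had a called rapamycin change with Crebl2. Erbb3, a neuregulin receptor, had 0.59 (edgeR adjusted p = 0.00468). All 5 were called in each of the 12 refits without 1 library. Mmp15, a membrane-bound metalloproteinase, measured 38.2, 36 and 36.6 CPM and then 13.5, 13.9 and 14.5 CPM with Luc, and 25.5, 23.7 and 28.2 CPM and then 18.6, 18.9 and 19.4 CPM with Crebl2 (interaction 0.96, edgeR adjusted p = 0.000236), the second smallest p of all genes.

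RNA processing genes were found among the lower responses beside Clk1, but not in that direction alone. Rbm20, a splicing factor of muscle, was called higher (interaction 0.30, edgeR adjusted p = 0.0307) and kept its call in 8 of the 12 refits. Srsf7, a splicing factor that CLK kinases phosphorylate, measured 173, 172 and 184 CPM with Luc in ethanol and 113, 113 and 106 CPM in rapamycin, and 210, 226 and 217 CPM and then 100, 107 and 96.7 CPM with Crebl2. The Crebl2 libraries stood above the Luc libraries in ethanol and overlapped them in rapamycin (interaction -0.43, edgeR adjusted p = 0.00655). The Srsf7 call ended without Crebl2 rapamycin 1 or 3 or Luc rapamycin 1, up to an adjusted p of 0.083. Prpf4 (-0.35, edgeR adjusted p = 0.0276), Luc7l (-0.33, 0.0322), Hnrnpdl (-0.30, 0.0325) and Pnn (-0.25, 0.0411) were called with all 12 libraries and kept their call in 3, 1, 1 and 1 of the 12 refits. In the Gadd45 family, Gadd45b and Gadd45g were called higher, and Gadd45a was not called (0.41, edgeR adjusted p = 0.132). Gadd45b measured 29.7, 29.3 and 29.7 CPM and then 26.8, 29.6 and 29.2 CPM with Luc, and 25.3, 23.8 and 26.3 CPM and then 35.2, 35.8 and 36.8 CPM with Crebl2 (interaction 0.56, edgeR adjusted p = 0.00245). Gadd45g had an interaction of 0.55 (edgeR adjusted p = 0.00686), with a fall of 1.25-fold under Luc and a rise of 1.17-fold under Crebl2.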
